A study of Rattus norvegicus with 92 samples.

Results

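Of the 20508 rows quantified in each of 8 rat tissues, 77 were lung-restricted in air-exposed animals. For this selection each value was divided by the total of its sample and multiplied by 1000000, which gives reads per 1000000 reads (CPM). A row was kept when its mean in the air lungs was at least 10 CPM and at least 10 times the mean in the air samples of each of the 7 other tissues. The air values therefore chose the rows, and the levels and ratios in air are given as a description, with no test. The rows are listed by Ensembl identifier, and 76 of the 77 are transcript identifiers and 1 is a gene identifier. The tables used here do not pair identifiers with gene symbols, so neither the known lung markers nor the cell types behind the rows could be looked up, and the name rests on the levels alone. Whether several of the rows belong to 1 gene is not known for the same reason.

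The samples came from male Wistar-Kyoto rats aged 12 to 13 weeks that breathed filtered air (0 ppm acrolein) or acrolein through a nose-only system for 4 h. Acrolein was stepped up at the start and then held at 3.16 ppm, and tissue was taken directly after the exposure. The lung gave 8 air and 6 acrolein samples, nasal epithelium 5 and 6, liver 5 and 6, adrenal 6 and 4, adipose 5 and 4, muscle 6 and 6, hippocampus 6 and 6, and hypothalamus 6 and 6. Samples are called here by the number in their label, and the labels do not state whether one number in several tissues is one rat. They also do not say more of how the samples of a group are related, so p-values measure the spread between these samples. Recovered library totals ran from 8014891 to 30194066 reads in lung, with a median of 12767751, and from 2513375 to 30194066 over all 92 libraries. Each tissue was normalized by the authors on its own. CPM divides by the total of the sample, so a factor common to that sample cancels. A level set beside that of another tissue is still a share of different RNA, and depends on what else each tissue expresses. CPM is not corrected for transcript length, so levels are compared for 1 row across samples and not as expression between rows.

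The lung has cell types of its own, such as the alveolar epithelial cells that make pulmonary surfactant and those that form the thin surface for gas exchange, and secretory club cells of the airways. Transcripts of such cells are often abundant in lung RNA and nearly absent elsewhere, which is why tissue-restricted transcripts are used to check the identity of a sample. Acrolein is a reactive aldehyde of smoke and vehicle exhaust that is taken up along the airways.

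In air, the 77 rows held 5.10% of all lung reads. The levels were uneven. The median row stood at 134.9 CPM, the lowest at 10.1 CPM and the highest at 7494 CPM. At least 100 CPM was reached by 48 rows and at least 1000 CPM by 13. The 3 rows with most reads held 41.2% of the reads on the set, and the first 10 held 68.6%. ENSRNOT00000047870 led with 7494 ± 1396 CPM (SD, n = 8). Its values in the air lungs were 5914 CPM at the lowest, a median of 7744 CPM and 9469 CPM at the highest. ENSRNOT00000007747 followed with 6767 ± 1812 CPM (SD, n = 8), and ENSRNOT00000119173 with 6755 ± 3776 CPM (SD, n = 8). ENSRNOT00000119173 was the more variable, with air lungs between 2640 and 13150 CPM.

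The ratio of air lung to the next tissue ran from 10.03 to 772, with a median of 24.7. It was at least 20 for 44 rows, at least 50 for 22 and at least 100 for 16. Adipose was the next tissue for 23 rows, nasal epithelium for 20, liver for 16, hypothalamus for 7, hippocampus for 6 and adrenal for 5. Muscle was the next tissue for 0 rows. For 12 rows the mean stayed under 1 CPM in all 7 other tissues. The 3 rows just inside the ratio limit had ratios of 10.03, 10.06 and 10.3, and the 3 just outside it had 9.89, 9.86 and 9.79. At the limit on lung level, the 3 rows just inside stood at 10.1, 11.7 and 11.8 CPM, and the 3 just outside at 9.73, 8.96 and 8.81 CPM.

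With all air samples ENSRNOT00000034498 had the highest ratio, 772, at 874 ± 229 CPM in air lung (SD, n = 8). Its highest mean elsewhere in air was 1.13 ± 1.49 CPM in adipose (SD, n = 5), and it was 0.951 CPM in liver, 0.575 CPM in adrenal and at most 0.239 CPM on average in the other 4 tissues. ENSRNOT00000047870 had a ratio of 466, set by the air livers at 16.1 ± 31.3 CPM (SD, n = 5). That mean came largely from 1 library. The liver numbered 5 had 71.8 CPM and the lowest air liver 0.271 CPM. Without that liver, liver was the next tissue for 6 rows instead of 16, and the number of rows with a ratio of at least 100 was 16 again. The highest ratio was then that of ENSRNOT00000094503, at 822, against 772 for ENSRNOT00000034498. At the other end, ENSRNOT00000003297 stood at 1458 ± 296 CPM in air lung (SD, n = 8) and at 121 ± 148 CPM in the air hypothalamus (SD, n = 6). That mean also came largely from 1 sample, the hypothalamus numbered 6, at 421 CPM, with the other air samples between 37.0 and 87.8 CPM. Without it the mean was 61.0 CPM and the ratio of ENSRNOT00000003297 was 23.9 instead of 12.1. The heat map of all samples shows this range, with some rows dark in every other tissue and others at a steady low level in most of them.

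**Figure D1:**
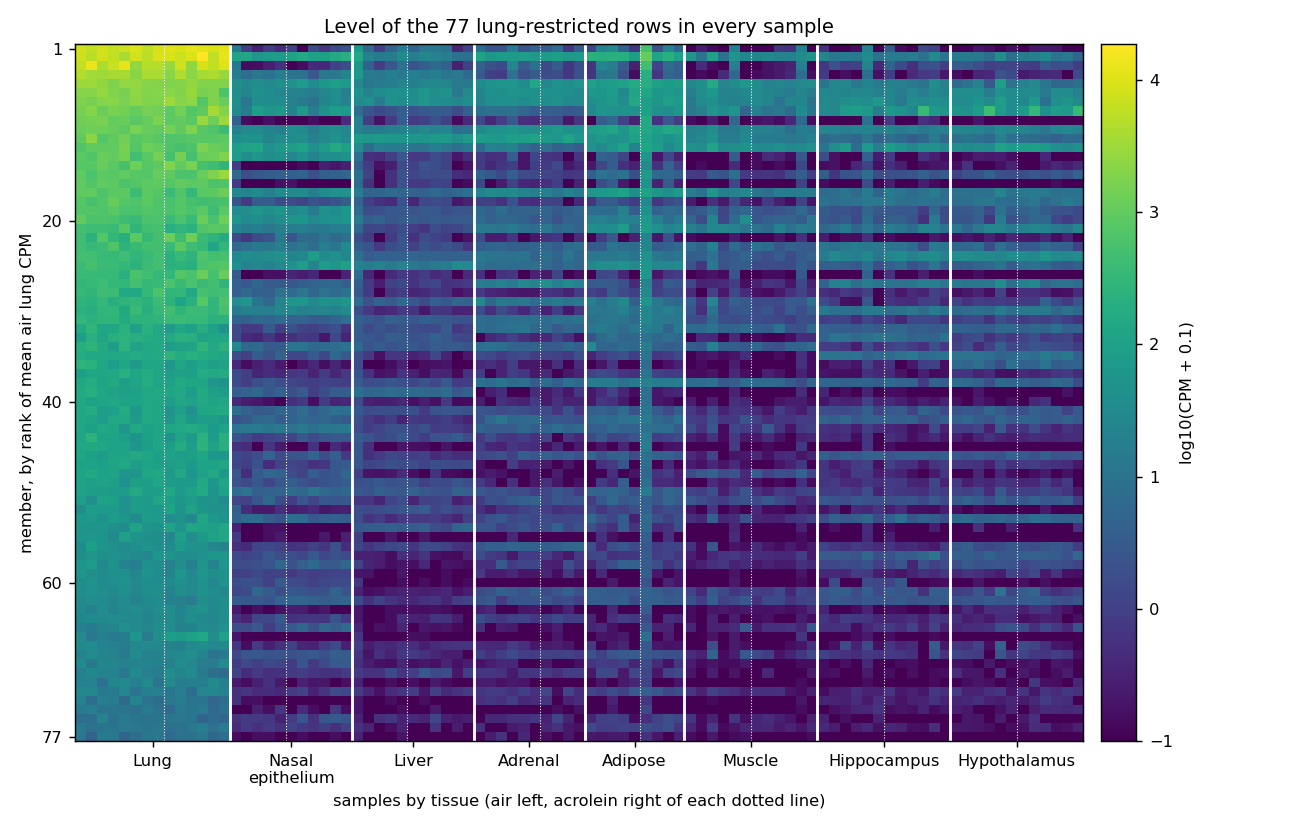
Each line is 1 of the 77 rows, ordered by mean air lung CPM, and each column 1 sample, grouped by tissue with air samples left and acrolein samples right of the dotted line. Colour gives log10(CPM + 0.1). The 14 lungs are the brightest block in every row, and 1 acrolein adipose sample, numbered 10, shows as a bright column.

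The acrolein samples took no part in the selection and were used to see how far the restriction held. In the acrolein samples 58 of the 77 rows met both limits, 60 met the ratio and 74 the lung level. The median ratio was 19.4 and the lowest 4.65. Adipose was the next tissue for 38 rows in the acrolein samples. That mean rested largely on 1 adipose sample, numbered 10. Without it 63 rows met both limits, 65 the ratio, and the median ratio was 23.0. The ratio of ENSRNOT00000047870 was 72.7 with that sample and 995 without it. In all 77 rows the lowest of the 6 acrolein lungs exceeded the highest of the 38 acrolein samples of other tissues. The same was true of 5.4% of the 9809 rows with at least 10 CPM in acrolein lung. Over air and acrolein together, the lowest of 14 lungs exceeded the highest of the samples of other tissues, which also number 77, in each row, by a factor of 1.6 at the least and 4.90 in the median row. The same was true of 4.16% of the 9460 rows with at least 10 CPM in air lung. The pooled values include the air samples that chose the rows and are a description only.

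Between the lungs themselves the rows had a wider spread than the typical row above the same lower limit, a difference given without a test. The coefficient of variation (SD over mean) in the 8 air lungs had a median of 26.0% over the 77 rows, from 11.5% to 60.1%, against a median of 20.3% over all rows with at least 10 CPM in air lung. The highest of the 14 lungs stood above 3 times the lowest in 46 of the 77 rows, and in 41.3% of all rows at that level. The rows did not all move in the same direction, and some moved together or in opposition. Over the 14 lungs the median Pearson correlation of the 2926 pairs of rows, on log2(CPM + 1), was 0.05, while 61 pairs stood at 0.8 or higher and 28 at -0.8 or lower. These correlations describe 14 lungs of both groups, share the depth of each library, and were not tested. They were not set beside those of other rows in lung.

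Opposite patterns are seen in single lungs. ENSRNOT00000034498 was at 1870 CPM in acrolein lung 9 and 1647 CPM in acrolein lung 12. In the other acrolein lungs it was 957 CPM in 10, 538 CPM in 13, 424 CPM in 14 and 285 CPM in 15. The air lungs ranged from 550 to 1281 CPM around a median of 815 CPM, so acrolein lungs 9 and 12 lay above all of them and lungs 13, 14 and 15 below. ENSRNOT00000119173 ran the other way, with 2865 CPM in acrolein lung 9, 2486 CPM in 12, 7877 CPM in 10, 8710 CPM in 13, 6149 CPM in 14 and 10080 CPM in 15. Their correlation over the 14 lungs was -0.75. With a correlation of at least 0.7, 8 rows followed ENSRNOT00000034498, and 14 stood at -0.7 or below with it. The pair with the highest correlation, chosen after the values were seen, was ENSRNOT00000008673 and ENSRNOT00000010466 at 0.96. In whole lung tissue, fewer cells of a type in a piece and less RNA per cell cannot be told apart.

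Acrolein lungs 13 and 15 had the largest share of reads on the 77 rows. The share was 6.99% in lung 13, with a 95% Wilson interval of 6.98 to 7.01%, and 6.56% in lung 15. The other 4 acrolein lungs had 5.0045 to 5.35%, and the air lungs 4.56 to 5.60%. Lung 13 was the highest of the 14 lungs in 17 rows and lung 15 in 13. Lung 15 was also the lowest of all in 12 rows and lung 9 in 14.

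**Figure D2:**
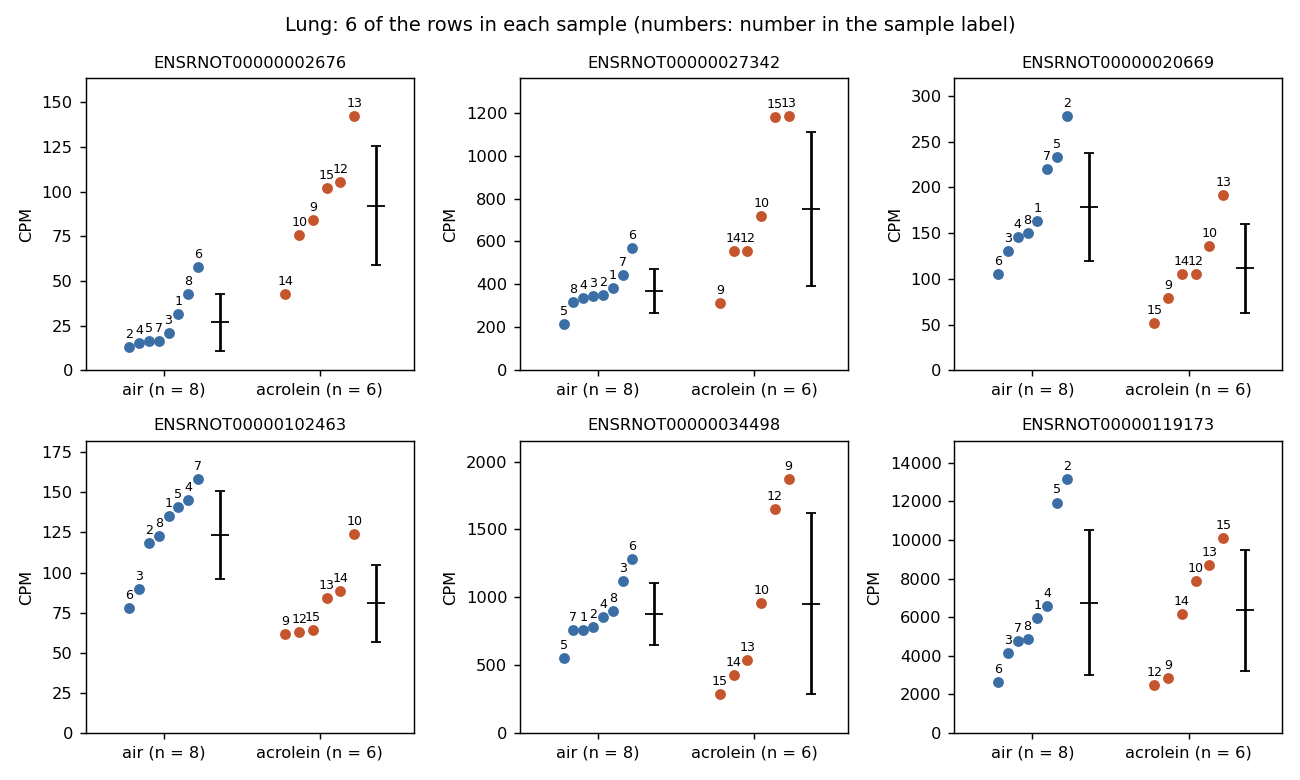
CPM of 6 of the rows in each of the 8 air lungs and 6 acrolein lungs, with the number in the sample label above each point and the mean ± SD to the right of each group. ENSRNOT00000034498 is high in acrolein lungs 9 and 12, where ENSRNOT00000119173 is low.

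The comparison of acrolein with air in lung asks whether the exposure altered these transcripts in a tissue that meets the inhaled air. According to the paper, acrolein that is breathed in deposits mostly in the nose. It was fitted with limma on log2(normalized count + 1) over 20052 rows. Following the limits in the study's methods, a call needed a Benjamini-Hochberg adjusted p no higher than 0.1 and a change of over 1.2 times in either direction. The air lungs also served in choosing the rows, which can bias the differences downward. Of the 77 rows 0 were called, against 0.00499% of all rows tested, which is 1 row. An unadjusted p under 0.05 was reached by 8 of the 77, with 4 positive and 4 negative differences, and by 7.67% of all rows. edgeR called 1 and DESeq2 2 of the 77, against 0.0299% and 0.582% of the rows these tools gave an adjusted p. The median log2 difference in limma was -0.10 over the 77 rows and -0.01 over all rows, and 30 of the 77 were positive, against 49.1% of all rows. In edgeR and in DESeq2 35 of the 77 were positive, against 54.8% and 53.2% of all rows. The limma difference lay within 0.5 of 0 in 69 rows, above 0.5 in 5 and below -0.5 in 3. The median 95% interval reached 0.54 to either side, so changes smaller than this were not detectable in most rows. The interval is not adjusted for the number of rows tested, so larger changes could also go uncalled. The largest difference, 1.85, had an adjusted p of 0.111 in limma and was not called. In 0 of the 77 rows did the air and acrolein lungs not overlap, against 0.0898% of all rows.

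**Figure D3:**
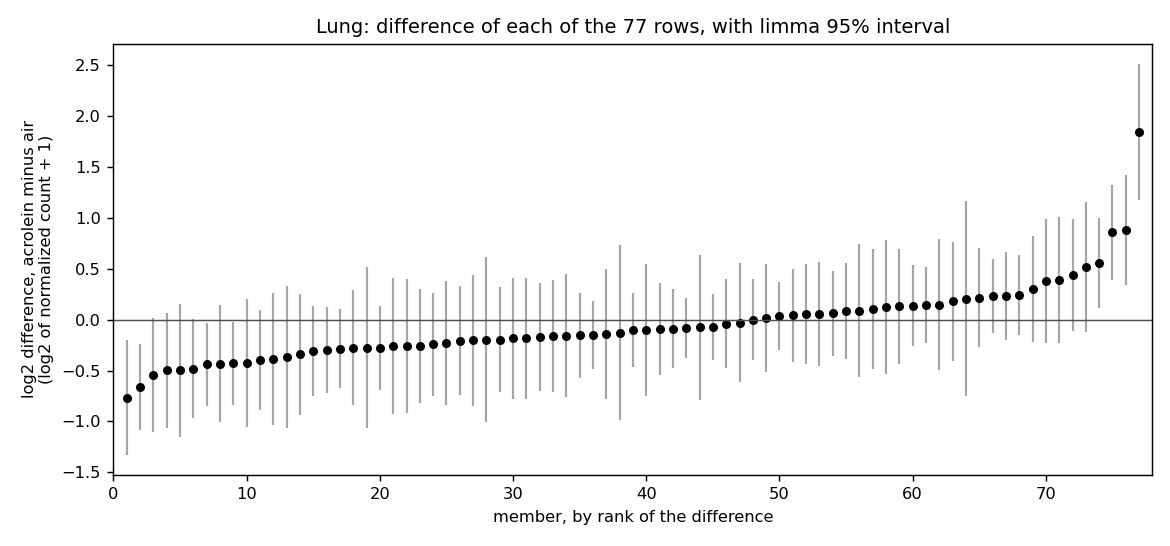
Difference between acrolein and air lungs for each of the 77 rows, ranked, on the log2(normalized count + 1) scale, with the limma 95% interval as a line. The median is -0.10, and 1 row, ENSRNOT00000002676, stands apart at 1.85.

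ENSRNOT00000002676 had the largest positive difference. In the air lungs it was 13.1 CPM at the lowest, a median of 18.6 CPM and 57.8 CPM at the highest. In the acrolein lungs it was 42.6 CPM at the lowest, a median of 92.9 CPM and 142 CPM at the highest. The groups overlapped only through air lung 6, at 57.8 CPM, and acrolein lung 14, at 42.6 CPM. The log2 difference was 1.85 ± 0.32 (SE), with a 95% interval of 1.18 to 2.52 and an adjusted p of 0.111 in limma, just short of the limit. On the recovered reads the adjusted p was 0.0949 in edgeR and 0.000437 in DESeq2, so both of these tools called it. limma also called it when air lung 6, air lung 8 or acrolein lung 14 was left out, with adjusted p of 0.0164, 0.086 and 0.0499. Without each of the other lungs the adjusted p stayed between 0.119 and 0.383. The row was also among the most restricted, at 0.111 CPM or less on average in every other air tissue.

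The next positive difference was that of ENSRNOT00000027342, with 217 to 570 CPM around a median of 349 CPM in the air lungs. The acrolein lungs ranged from 312 to 1183 CPM around a median of 638 CPM. Acrolein lungs 13 and 15 were the highest, and lungs 9, 12 and 14 lay inside the air range. The log2 difference was 0.88 ± 0.26 (SE) with an adjusted p of 0.574 in limma, 0.345 in edgeR and 0.0702 in DESeq2.

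ENSRNOT00000020669 had the largest negative difference. Its air lungs ranged from 104.995 to 278 CPM around a median of 156 CPM, and its acrolein lungs from 51.3 to 192 CPM around a median of 106 CPM. The log2 difference was -0.77 ± 0.27 (SE) with an adjusted p of 0.629 in limma. ENSRNOT00000102463 had 78.2 to 158 CPM in the air lungs and 61.4 to 124 CPM in the acrolein lungs, with a log2 difference of -0.66 ± 0.20 (SE) and an adjusted p of 0.585. Neither was called by limma, edgeR or DESeq2, and the groups overlapped in both.

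The 2 leading rows were higher on average in the acrolein lungs, without passing the test. ENSRNOT00000047870 reached 10322 ± 1098 CPM (SD, n = 6), between 8698 and 11677 CPM, against 7494 CPM in air, a log2 difference of 0.44 ± 0.26 (SE) with an adjusted p of 0.683 in limma. ENSRNOT00000007747 reached 10297 ± 4489 CPM (SD, n = 6), and acrolein lung 13 alone stood at 18566 CPM. Its log2 difference was 0.52 ± 0.30 (SE), with an adjusted p of 0.681 in limma. For ENSRNOT00000034498 the log2 difference was -0.20 in limma and 0.14 in edgeR, so its sign depended on the tool.

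In the other tissues the 77 rows were at low levels, and the same limma fit was made in each. Nasal epithelium is the other tissue in contact with the inhaled air. There 0 of the 76 rows that could be tested were called, against 0.651% of all rows. An unadjusted p under 0.05 was reached by 9 of them, all higher in acrolein, and by 12.2% of all rows. edgeR called 0 of the rows in nasal epithelium, against 0.552% of all rows, and DESeq2 called 4, all higher, against 2.43%. Leaving out nasal acrolein sample 11 gave 4 calls, against 1.41% of all rows, and leaving out air sample 8 gave 1, against 0.469%. In adrenal, muscle, hippocampus and hypothalamus limma, edgeR and DESeq2 called 0 of the lung-restricted rows. limma and edgeR called 0% of all rows there, and DESeq2 called 0.124% in adrenal, 0.0305% in muscle, 0% in hippocampus and 0.00498% in hypothalamus. An unadjusted p under 0.05 in limma was reached by 10 of 74 lung-restricted rows in adrenal, 2 of 75 in muscle, 0 of 76 in hippocampus and 2 of 70 in hypothalamus. Over all rows the shares were 7.54% in adrenal, 2.99% in muscle, 4.31% in hippocampus and 2.69% in hypothalamus.

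In liver limma called 0 of the 77 rows, against 0.368% of all rows, while 11 rows had an unadjusted p under 0.05, as did 19.2% of all rows. edgeR called 0, against 1.53% of all rows, and DESeq2 5, against 13.4%. The result turned on the liver numbered 5. Without it limma called 17 of the 76 rows tested, against 9.31% of all rows. Called and higher in the acrolein livers were 16 of the 76, against 5.7% of all rows. The median log2 difference of the rows was 0.11 with that liver and 0.55 without it in limma, and -0.25 in edgeR with all livers. That liver was the highest of the air livers on these same rows, so leaving it out raises their differences by itself. The calls without it are a description only. Leaving out the liver numbered 7 gave 3 calls, against 5.04% of all rows, and leaving out any of the other livers gave 0.

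In adipose limma, edgeR and DESeq2 called 0 of the 77 rows. limma and edgeR called 0% of all rows, and DESeq2 0.00509%. An unadjusted p under 0.05 was reached by 2 rows in limma, against 2.71% of all rows, and by 22 rows in edgeR, against 3.79% of all rows. The log2 difference was positive in 70 of the 77 rows in limma, with a median of 0.44, against 0.00 over all rows. Without acrolein sample 10 it was positive in 36 of 74 rows, with a median of -0.01.

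That adipose sample was examined further, together with every other sample outside lung. For each sample the level of each row was divided by the mean air lung level, and the median over the rows was taken, in ppm of the lung level, where 1000000 ppm is the level of air lung itself. A second median used only the 16 rows with an air ratio of at least 100, a subset chosen after the values were seen. In the 8 other adipose samples the median over all 77 rows was between 11564 and 22265 ppm. In acrolein sample 10 it was 78623 ppm. On the 16 rows the other adipose samples were between 0 and 4050 ppm, and sample 10 was at 71016 ppm. A value of 0 means that the middle rows had no read. Of the reads of sample 10, 0.462% fell on the 77 rows, with a 95% Wilson interval of 0.4581 to 0.4658%, against 0.0962 to 0.116% in the other adipose samples. All 77 rows were detected in it, and 67 of them were higher than in every other adipose sample, as were 10.1% of all adipose rows.

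**Figure D4:**
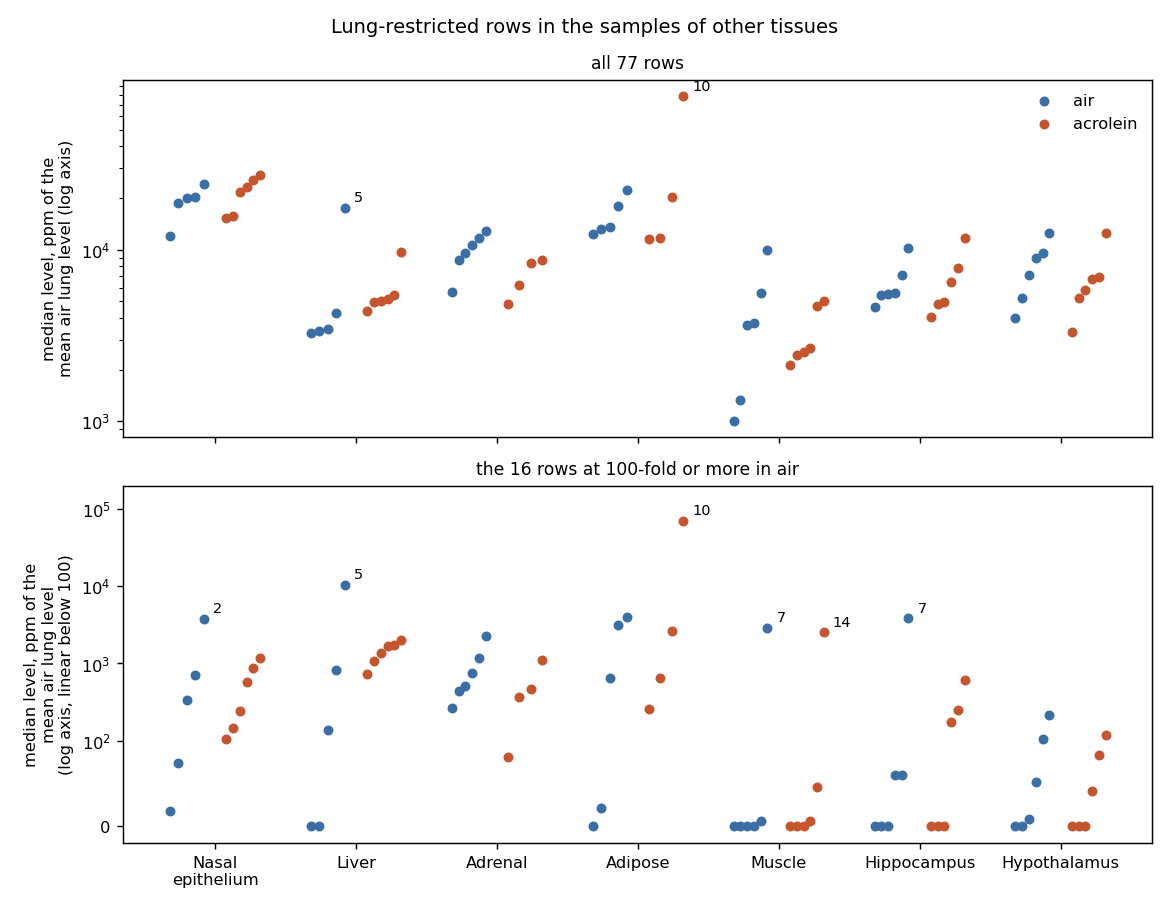
Median level of the lung-restricted rows in each of the 77 samples outside lung, in ppm of the mean air lung level, for all 77 rows (top) and for the 16 most restricted rows (bottom), with air and acrolein samples in separate columns. Acrolein adipose sample 10 is the highest in both, at 78623 and 71016 ppm, and numbers mark samples that stand apart within their tissue.

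The levels in adipose sample 10 followed those of 1 particular lung. For each of the 16 rows its CPM was divided by the CPM in each of the 14 lungs. Against acrolein lung 13 the 16 shares lay between 4.85% and 6.86%, with a median of 5.63%. The SD of their log2 ratio was 0.11. Against the other 13 lungs that SD ran from 0.66, in acrolein lung 10, to 1.10, in acrolein lung 9. Against acrolein lung 10, which has the same number as the adipose sample, the shares lay between 3.10% and 15.4%. Rows that were unusual in lung 13 show this. ENSRNOT00000002676 was at 142 CPM in lung 13 against 26.7 CPM on average in the air lungs, and at 8.05 CPM in adipose sample 10 against at most 0.162 CPM in the other adipose samples. ENSRNOT00000034498 was at 538 CPM in lung 13, below the air mean of 874 CPM, and at 29.7 CPM in adipose sample 10, which is 5.51% of lung 13 and 3.10% of lung 10. ENSRNOT00000047870, at 537 CPM in the adipose sample, was at 5.32% of lung 13. The reads behind these shares ran from 13 to 6537 per row, so the spread among the shares includes counting error. Rows restricted to liver by the same 2 limits, 338 in all, were also raised in this adipose sample, with a median of 7947 ppm of the air liver level against at most 1528 ppm in the other adipose samples. Rows restricted to nasal epithelium, adrenal, muscle, hippocampus or hypothalamus were not above all other adipose samples. How lung-restricted reads came to be in this sample was not tested.

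**Figure D5:**
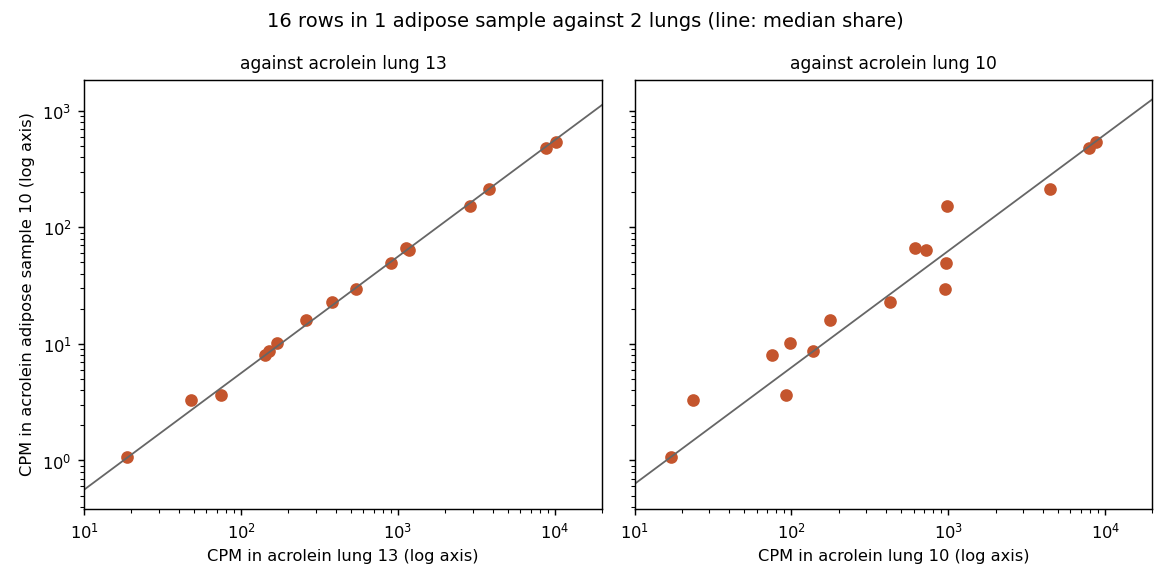
CPM of the 16 most restricted rows in acrolein adipose sample 10 against acrolein lung 13 (left) and acrolein lung 10 (right), both axes logarithmic, with a line at the median share. The points lie on the line for lung 13 (shares of 4.85% to 6.86%) and scatter for lung 10 (3.10% to 15.4%).

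A smaller rise was seen in the air liver numbered 5. Its median over the 77 rows was 17522 ppm, against 3283 to 4302 ppm in the other 4 air livers and 4380 to 9661 ppm in the acrolein livers. On the 16 rows it was at 10474 ppm and the highest of the other livers at 2001 ppm. It held 0.0805% of its reads on the 77 rows, with a 95% Wilson interval of 0.0786 to 0.0823%, and 51 rows were higher than in every other liver, as were 12.1% of all liver rows. Over the 12 rows with at least 10 reads in it, the shares of lung 13 lay between 0.465% and 1.71% and the SD of the log2 ratio was 0.47. For the next nearest lung, acrolein lung 14, that SD was 0.60. These SDs were larger than the 0.11 of adipose sample 10 against lung 13. The liver had 2285 reads on the 16 rows and the adipose sample 20196, so counting error widens the liver spread more. The SDs can therefore not show which of the 2 samples followed a lung more closely.

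On the 16 rows 4 more samples stood above the rest of their group. Air hippocampus sample 7 was at 3889 ppm against 0 to 60.4 ppm in the other air samples of that tissue. Muscle air sample 7 was at 2905 ppm and muscle acrolein sample 14 at 2564 ppm, with the other muscle samples between 0 and 46.0 ppm. Nasal air sample 2 was at 3832 ppm against 17.5 to 701 ppm. Over the rows with at least 10 reads, hippocampus sample 7 and muscle air sample 7 were nearest in profile to acrolein lung 15, with SDs of the log2 ratio of 0.46 over 11 rows and 0.32 over 8 rows. Muscle acrolein sample 14 was nearest to acrolein lung 13, with an SD of 0.50 over 10 rows. Nasal air sample 2 was nearest to acrolein lung 14, with a wide SD of 0.93 over 12 rows. The SDs for the second nearest lung were 0.77 for hippocampus sample 7 and 0.72 for muscle air sample 7, both acrolein lung 13. They were 0.65 for muscle acrolein sample 14 and 1.06 for nasal air sample 2, both acrolein lung 15. Some lung is nearest for any sample, and rows with few reads were left out. The nearest lung is therefore a description and does not show that a sample followed that lung. On all 77 rows none of these 4 samples was the highest of its tissue. On rows restricted to nasal epithelium, muscle acrolein sample 14 was at 3804 ppm, against at most 1454 ppm in the other muscle samples. On adrenal-restricted rows, hippocampus air sample 7 was at 8679 ppm, against at most 7770 ppm in the other hippocampus samples. Muscle air sample 7 and nasal air sample 2 were not above all others of their tissue on rows restricted to any further tissue. In hypothalamus no sample passed 212 ppm on the 16 rows.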

How the data were processed

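Messenger RNA libraries from 8 tissues were sequenced by the authors, who mapped reads to the rat genome rn7 in Partek Flow with an Ensembl annotation and normalized with DESeq2. What the authors deposited is a normalized signal, in which each read count has been divided by the sample's size factor, in 8 tables of the same 20508 rows, with rows of few reads removed. All 92 columns were mapped by name. The pair of adipose air columns numbered 8 was averaged into 1 sample. The smallest value above 0 in a column was taken as the worth of 1 read, and whole reads were recovered from it. At least 99.995% of the values in every column came out within 0.05 of a whole number. In 5 columns that step was about 1. A row with 0 reads could hold up to 3 reads by chance, which is 0.0994 to 0.45 CPM depending on the sample. Intervals and this limit cover counting error only.

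The members and lists were chosen with earlier results of these data known. Samples were grouped by the tissue and treatment in their labels. Acrolein was compared with air within each tissue with limma 3.58.1 (R 4.3.3), using its moderated test with a mean-variance trend on log2(value + 1), over rows above 0 in at least 2 samples, with Benjamini-Hochberg adjustment over all rows tested. Rows with low values show smaller fold changes on this scale than they have. edgeR 4.0.16 and DESeq2 1.42.0 on recovered reads, another pseudocount, other filters, columns at a common total and each sample left out in turn were alternatives. Where DESeq2 returned no adjusted p, none was filled in. The functions were run on reads simulated from the lung and liver means, with the same spread setting for every row. The real rows differ in spread, and the outcome of that run is not used here. Planned marker and gene lists and sequences were not used, because the tables used here do not pair identifiers with symbols. For that reason the rows named for their difference in lung were the 2 most positive and 2 most negative with a mean of at least 100 normalized counts. Other rows were named for their level or ratio, or after their values were seen.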

Additional observations from a re-analysis of the deposited data

Results flagged for a closer look

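Within each group of 4 to 10 samples, a sample was set aside for a closer look when its gap to the nearest of the others was large against the range of the group (Dixon's test at 95%). Among 48 groups of values examined, 9 had such a sample. Chance does this in about 1 group in 20 only when groups are independent and their values normally distributed. Here the 16 rows are part of the 77, and the air values took part in choosing both sets. In some groups the middle of the 16 rows also had few or no reads. The rate of 1 in 20 therefore cannot be set against the 9 groups, which are a description only. The highest median level of the 77 rows in adipose acrolein samples was that of sample 10, at 78623 ppm, with the others between 11564 and 20167 ppm. On the 16 most restricted rows it was at 71016 ppm, with the others between 254 and 2636 ppm. Air liver 5 was at 17522 ppm on the 77 rows and 10474 ppm on the 16, with the other air livers at no more than 4302 and 816 ppm. Acrolein liver 11 was at 9661 ppm on the 77 rows, with the others between 4380 and 5483 ppm. On the 16 rows the samples set aside were nasal air sample 2 at 3832 ppm, muscle air sample 7 at 2905 ppm, muscle acrolein sample 14 at 2564 ppm and hippocampus air sample 7 at 3889 ppm. The other samples of these groups were at no more than 701, 6.18, 46.0 and 60.4 ppm. In the lung groups no sample was set aside for the share of reads on the rows, nor for the 9 rows examined one by one. The part of any handling step in these values was not tested.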

How the results depend on the processing

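No paired analysis was possible because no number occurs in both exposure groups (1 to 8 in air, 9 to 16 in acrolein).

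Of 384 values under an alternative, 321 kept their direction, side of the threshold or size, 57 moved and 6 became calls, and 0 reversed. Many of the 321 are counts of 0 calls that stayed at 0, such as both counts in hippocampus under all 18 alternatives. The count over all rows moved in 15 alternatives and stayed in 2 in liver. It moved in 10 and stayed in 7 in nasal epithelium, and moved in 11 and stayed in 10 in lung. The cause was not tested. The lungs with lower-case labels are all lungs except acrolein lungs 14 and 15, so only acrolein lungs are left out there. For all rows in lung (1 call), the counts were 0 with a pseudocount of 0.1, 3 with a mean of at least 10, 2 at a common total, 6 in edgeR, 95 in DESeq2, 0 in the lungs with lower-case labels, and 1 to 8 with a lung left out. For the 77 rows in lung (0 calls), they were 1 with a mean of at least 10, 1 in edgeR, 2 in DESeq2 and 0 to 1 with a lung left out. The median log2 difference in lung was -0.14 to -0.06 with a lung left out. For all rows in nasal epithelium (132 calls), DESeq2 gave 452 and leaving out a sample 58 to 285. For the lung-restricted rows there (0 calls), DESeq2 gave 4 and leaving out a sample 0 to 4. For all rows in liver (69 calls), the counts were 317 with a mean of at least 10, 19 at a common total, 287 in edgeR, 1699 in DESeq2 and 13 to 1740 with a liver left out. For the lung-restricted rows in liver (0 calls), they were 1 with a mean of at least 10, 5 in DESeq2 and 0 to 17 with a liver left out. DESeq2 called 18 rows in adrenal, 1 in adipose, 6 in muscle and 1 in hypothalamus, where limma called 0, and leaving out a hypothalamus sample gave 0 to 1.

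The rule gave 165 rows at a ratio of 5, 44 at 20, 102 at 1 CPM, 55 at 50 CPM, 84 with medians (73 of the 77 among them) and 74 to 79 with an air lung left out. Alternatives without adipose sample 10 or liver 5, and the 16-row subset, were added after the data were seen. Without liver 5 the rule gave 77 rows. The median level over the 77 samples outside lung was 7118 ppm on the 77 rows, 9670 ppm as a summed share and 144 ppm on the 16 rows, the last a move beyond the typical SD within a group (3125 ppm). Rows under 1 CPM outside lung rest on few reads, which limits their ratios.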
